A study of Mus musculus with 23 samples.

Results

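The autophagy and mitophagy genes described here are 40 mouse genes of the core autophagy machinery, its cargo receptors and 3 genes of mitochondrial clearance, chosen by name for their role. All 40 were found among the 18876 genes of the count table, and all 40 were among the 18759 genes that had at least 5 counts in at least 3 samples and were tested. The samples were bulk RNA-seq libraries of hippocampal CD11b+ cells from female mice, in a study of iron import by microglia in an amyloid model. Every mouse had floxed alleles of Slc11a2 (Slc11a2 fl/fl), which encodes the ferrous iron transporter DMT1, and 1 copy of Cx3cr1 Cre-ERT2 (Cx3cr1 Cre-ERT2+/-), on a mixed 129S;C57BL/6J background. The Cre is driven by the Cx3cr1 promoter, which is active in microglia and other macrophages. KD mice were gavaged with tamoxifen, 4 mg a day for 5 days at 5 to 6 months of age, and Control mice with corn oil, so that tamoxifen and knockdown cannot be told apart. Mice carried the APP/PS1 transgenes in the hemizygous state or were WT littermates, and cells were collected at 15 to 18 months. The groups were Control WT (6 libraries), Control APP/PS1 (6 libraries), KD WT (5 libraries) and KD APP/PS1 (5 libraries). Libraries are called here by the number in their titles, and the labels do not say what this number stands for. All Control libraries are numbered 5 to 17, the KD WT libraries are 1, 2, 3, 19 and 22, and the KD APP/PS1 libraries are 4, 18, 20, 21 and 23. Values of the KD groups are given in that order throughout.

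Autophagy encloses cytoplasm in a double membrane and delivers it to the lysosome. The ULK1 kinase complex starts the process, a class III PI3-kinase complex marks the site with PI3P, lipid is supplied by ATG2 and ATG9, and a pair of ubiquitin-like conjugation systems attaches the small proteins of the LC3 and GABARAP family to the growing membrane. Cargo receptors bind both cargo and LC3 or GABARAP, mitophagy receptors do so on mitochondria, and SNARE and tether proteins then bring about fusion with the lysosome. In microglia the same conjugation machinery also serves the handling of engulfed material, including amyloid.

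Total counts ran from 31128643 to 54872491 a library (median 41460280, n = 22), and 39 of the 40 members, all but Optn, had at least 10 counts in each of the 22 libraries. Level is given in CPM, the count of a gene relative to the library total after scaling by edgeR's library factors. The summed level of 8 microglia markers was 26947 to 41350 CPM in every library, with all 8 detected, and was lower in the Control APP/PS1 libraries (26947 to 30932 CPM) than in the Control WT libraries (35724 to 40909 CPM). Markers of choroid plexus epithelium, 10 genes, summed to at most 1.77 CPM in Control APP/PS1, where Clic6, Kcne2, Cldn2, Kcnj13 and Sostdc1 were at 0 throughout, but reached 1260 CPM in Control WT, 546 CPM in KD WT and 420 CPM in KD APP/PS1. The targeted gene was not called between KD and Control in either genotype by its whole-gene count, which does not single out the floxed exons. Slc11a2 stood at 29.9 to 43.7 CPM in Control WT (median 33.5) and at 37.5, 31.6, 27.1, 36.9 and 38.1 CPM in KD WT (log2 fold change −0.04 ± 0.14 SE, adjusted p = 1). It stood at 40 to 48.2 CPM in Control APP/PS1 (median 41.5) and at 37.8, 52.1, 59.2, 75.1 and 58.2 CPM in KD APP/PS1 (0.39 ± 0.14, adjusted p = 0.205). Between the KD groups it was higher in KD APP/PS1 than in KD WT (0.72 ± 0.15, adjusted p = 0.00209), with overlapping libraries. In bulk libraries a lower share of a cell type and less RNA per cell cannot be told apart.

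The members differed widely in level per kilobase (kb) of exon, the scale on which genes can be set side by side. In Control WT, Gabarap was the highest at 243 ± 19.1 CPM per kb (SD, n = 6) and Map1lc3b, which encodes LC3B, followed at 206 ± 5.87. Fundc1 (75.1 ± 4.99), Bnip3l (69.6 ± 5.33), Map1lc3a (69 ± 11.3) and Gabarapl2 (66.1 ± 6.61) came next and lay within each other's spread. Gabarapl1 followed at 54.9 ± 4.78. The LC3 and GABARAP genes and the outer-membrane mitophagy receptors Fundc1 and Bnip3l were thus the most abundant transcripts of the list per kb of the Ensembl canonical transcript, the exon length used here. Over all annotated exons Gabarap stayed first at 189.8 CPM per kb, but Map1lc3b, with 7617 bp in place of 889 bp, stood at 24.0 and behind Pink1 at 32.1.

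**Figure D1:**
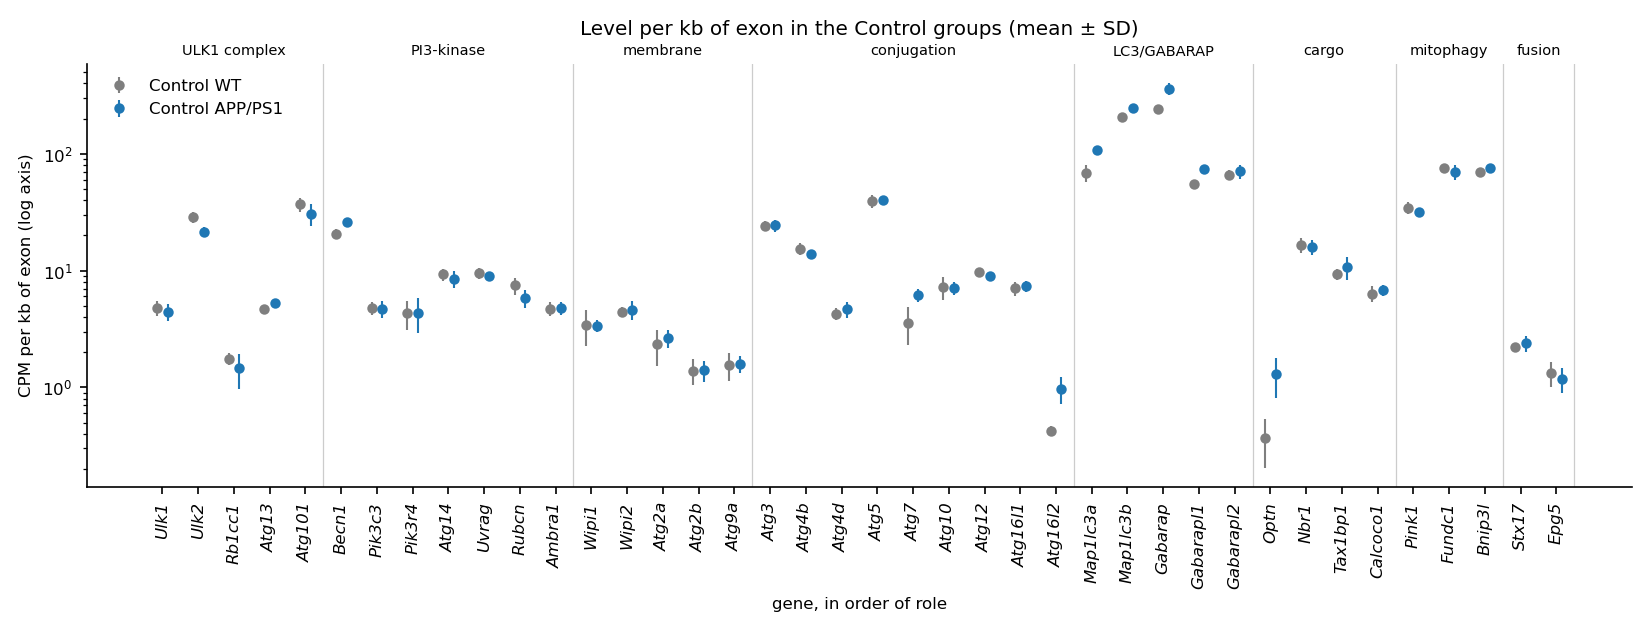
Level of each of the 40 members in CPM per kb of exon (vertical log axis) in Control WT and Control APP/PS1, with genes along the horizontal axis in order of role; points are means of 6 libraries and bars are SD. Gabarap and Map1lc3b stand highest in both groups, and the lowest are Optn and Atg16l2 in Control WT and Atg16l2 and Epg5 in Control APP/PS1.

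Among the initiation genes, Atg101 (36.9 ± 5.24 CPM per kb in Control WT) and the kinase gene Ulk2 (28.8 ± 3.21) stood well above the kinase gene Ulk1 (4.78 ± 0.671), the adaptor Atg13 (4.69 ± 0.327) and the scaffold Rb1cc1, which encodes FIP200 (1.75 ± 0.212). Among the nucleation genes, Becn1, the Beclin 1 subunit, led at 20.6 ± 2.08, followed by Uvrag (9.49 ± 0.982) and Atg14 (9.27 ± 1.13), which define alternative complexes with Beclin 1 and whose levels lay within each other's spread. The inhibitor Rubcn was at 7.47 ± 1.23, and the lipid kinase Pik3c3 (4.76 ± 0.589), Ambra1 (4.73 ± 0.61) and Pik3r4 (4.31 ± 1.22) did not differ beyond their spread. The membrane supply genes were all low: Wipi2 4.45 ± 0.429, Wipi1 3.44 ± 1.19, Atg2a 2.33 ± 0.794, Atg9a 1.56 ± 0.42 and Atg2b 1.39 ± 0.342 CPM per kb.

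The conjugation genes ranged from Atg5 (39.3 ± 4.82 CPM per kb in Control WT) and the E2-like Atg3 (24.2 ± 2.29) through the protease gene Atg4b (15.4 ± 1.74), Atg12 (9.76 ± 0.788), the E2-like Atg10 (7.19 ± 1.55) and Atg16l1 (7.04 ± 1.01) to Atg4d (4.27 ± 0.504), the E1-like Atg7 (3.58 ± 1.26) and Atg16l2 (0.425 ± 0.045). The cargo receptors ran from Nbr1 (16.6 ± 2.42) through Tax1bp1 (9.34 ± 1.06) and Calcoco1 (6.32 ± 0.989) to Optn (0.368 ± 0.165), the lowest member. Pink1, the kinase that marks damaged mitochondria, was at 34.6 ± 4.36, and the fusion genes Stx17 and Epg5 at 2.24 ± 0.131 and 1.32 ± 0.309. The spread among libraries was wider in the KD groups: the median coefficient of variation over the 40 members was 12.2% in Control WT, 13.5% in Control APP/PS1, 26.1% in KD WT and 28.5% in KD APP/PS1.

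The first comparison asked how the members differed with the APP/PS1 transgenes in mice that kept DMT1. In Control APP/PS1, 6 of the 40 members rose relative to Control WT and none fell (edgeR's quasi-likelihood test, adjusted p under 0.05 over all genes). They were 3 of the 5 LC3 and GABARAP genes (Map1lc3a, Gabarap and Gabarapl1), the conjugation genes Atg16l2 and Atg7, and Becn1. Of all genes tested, 5.99% rose and 4.48% fell, and the median log2 fold change was 0.02 over the members and −0.02 over all genes. By the other tools, DESeq2 called 7 members higher and 0 lower, against 6.60% and 6.96% of all genes, and limma voom 8 higher and 2 lower, against 11.1% and 7.15%. In 7 members all Control APP/PS1 libraries lay above all Control WT libraries (Becn1, Atg16l2, Map1lc3a, Map1lc3b, Gabarap, Gabarapl1 and Optn), against 5.33% of all genes, and in none did they all lie below, against 3.03%.

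**Figure D2:**
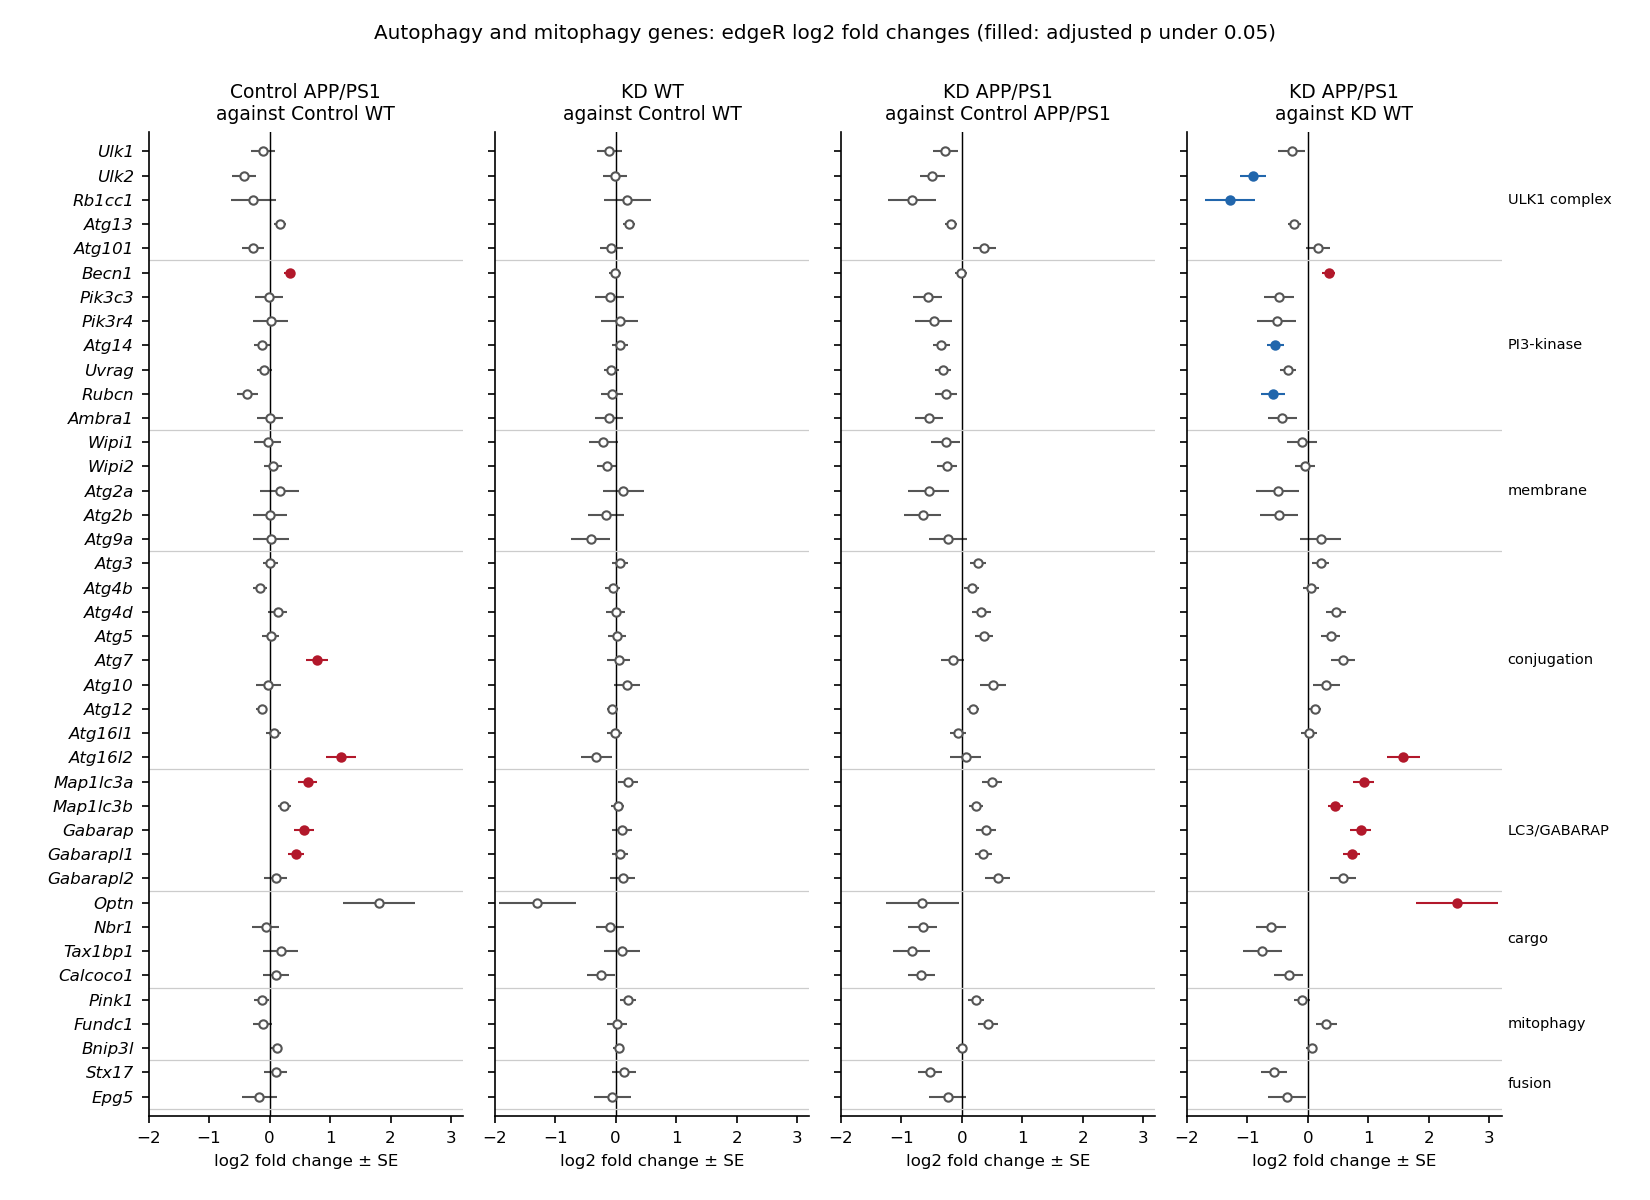
edgeR log2 fold change ± SE of the 40 members (rows, in order of role) in 4 comparisons (panels), with filled points where the adjusted p is under 0.05. The 5 LC3 and GABARAP genes are on the positive side in each panel, and calls are made in the 2 comparisons of APP/PS1 with WT and in neither comparison of KD with Control.

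Map1lc3a (ENSMUSG00000027602, GRCm39 chr2:155118217-155119998), which encodes LC3A, stood at 45.5 to 68.9 CPM in Control WT (median 57.4) and at 78.5 to 101 CPM in Control APP/PS1 (median 89.3). The groups did not overlap, and the log2 fold change was 0.63 ± 0.16 (SE, adjusted p = 0.00926). Gabarap (ENSMUSG00000018567, chr11:69881888-69886109) stood at 394 to 486 CPM (median 430.3) in Control WT and at 509 to 704 CPM (median 657) in Control APP/PS1, a change of 0.57 ± 0.16 (adjusted p = 0.0208). Its groups also stayed apart, and without Control APP/PS1 library 11 its change was 0.54 with an adjusted p of 0.0509. Gabarapl1 (ENSMUSG00000030161, chr6:129509725-129520544) stood at 89 to 115 CPM (median 99.4) against 125 to 146 CPM (median 136), a change of 0.44 ± 0.13 (adjusted p = 0.0307). Its libraries did not overlap either. The call of Gabarapl1 was the least firm of the 6: it was lost in 9 of 12 fits without 1 library (without Control WT library 6, 8, 9, 12 or 15 or Control APP/PS1 library 7, 11, 16 or 17), with changes between 0.41 and 0.48 and adjusted p up to 0.0716 over those 12 fits.

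The remaining LC3 and GABARAP genes did not pass in edgeR's fit of all groups. Map1lc3b (ENSMUSG00000031812, chr8:122317100-122325499) stood at 174 to 188 CPM (median 183) in Control WT and at 200.4 to 233 CPM (median 216) in Control APP/PS1, with no overlap but a log2 fold change of only 0.25 ± 0.11 (adjusted p = 0.156). It was called higher by limma voom, with only the Control groups in the fit, with a term for libraries 18 to 23 and with KD libraries 18 to 23 only, but not by DESeq2. Gabarapl2 (ENSMUSG00000031950, chr8:112667322-112682011), also known as GATE-16, stood at 94.2 to 123 CPM (median 116) and 92.5 to 134 CPM (median 126), with overlapping groups (0.10 ± 0.19, adjusted p = 0.831). The summed level of the 5 genes was 810 to 976 CPM in Control WT (median 880.8) and 1005 to 1296 CPM in Control APP/PS1 (median 1236), without overlap.

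**Figure D3:**
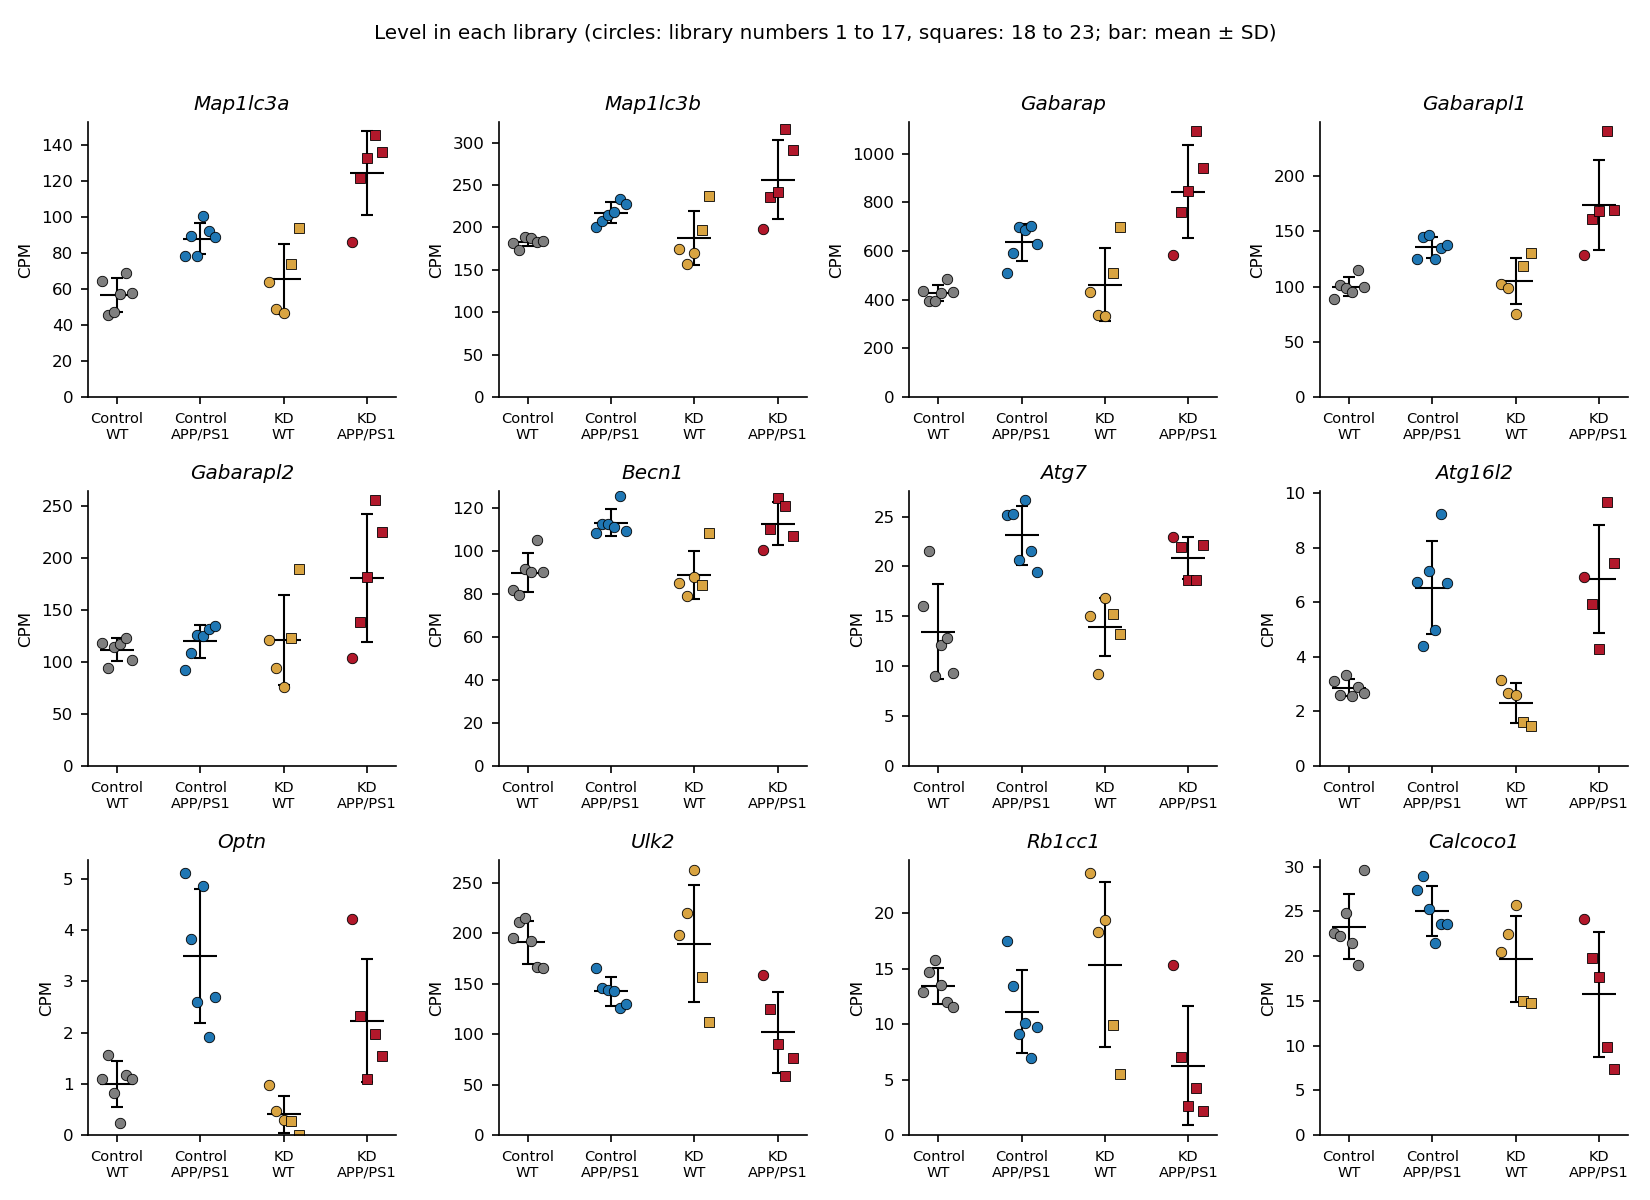
Level in CPM (vertical axis, from 0) of selected members in each library of the 4 groups; circles are libraries numbered 1 to 17, squares libraries numbered 18 to 23, and bars mean ± SD. Atg16l2 separates APP/PS1 from WT in Control and in KD, while the squares of the KD groups lie high for the LC3 and GABARAP genes.

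Atg16l2 (ENSMUSG00000047767, chr7:100912241-100951495), the paralogue of the E3-like scaffold gene Atg16l1, showed the largest called change of the list. It stood at 2.58 to 3.33 CPM in Control WT (median 2.79) and at 4.4 to 9.22 CPM in Control APP/PS1 (median 6.73), with no overlap and a log2 fold change of 1.19 ± 0.25 (adjusted p = 0.00215). Atg16l1 itself differed by 0.07 ± 0.12 (adjusted p = 0.824). Atg7 (ENSMUSG00000030314, chr6:114620044-114837576), the E1-like enzyme of both conjugation systems, stood at 9.02 to 21.6 CPM (median 12.5) against 19.4 to 26.7 CPM (median 23.4). The 2 groups overlapped in this gene, and the change was 0.78 ± 0.18 (adjusted p = 0.00662). Becn1 (ENSMUSG00000035086, chr11:101176769-101193122) stood at 79.7 to 105 CPM (median 90.4) against 108 to 125 CPM (median 112), without overlap (0.33 ± 0.09, adjusted p = 0.0214). Its call was lost without Control WT library 6 (0.31, adjusted p = 0.0545), without Control WT library 8 (0.30, 0.0545) or without Control APP/PS1 library 16 (0.30, 0.0569).

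Choroid plexus markers moved with the genotype in the Control groups, with Control WT libraries 12 and 15 at 1260 and 745 CPM and every Control APP/PS1 library at 1.77 CPM or less. Of the marker lists, 8 of 10 choroid plexus, 5 of 6 border-associated macrophage, 5 of 6 monocyte and neutrophil, 4 of 6 oligodendrocyte, 3 of 6 endothelial, 2 of 7 neuronal, 1 of 5 lymphocyte and 3 of 8 microglia markers were called lower in Control APP/PS1, while 1 of 6 astrocyte and 1 of 6 endothelial markers were called higher. Left out of the fit, the WT libraries above 10 CPM of choroid plexus markers ended the calls of Atg7 (0.64, adjusted p = 0.0676), Becn1 (0.34, 0.054) and Gabarapl1 (0.43, 0.0781). With DESeq2's size factors in edgeR, Becn1 (0.30, adjusted p = 0.0573) and Gabarapl1 (0.41, 0.069) were not called either. Control WT libraries 12 and 15 themselves had 886 and 876 CPM of the 5 LC3 and GABARAP genes, within the range of the other Control WT libraries. The part of the other cell types in the remaining changes was not tested. Atg16l2 (adjusted p 6.54e-05 to 0.00903) and Map1lc3a (0.000222 to 0.0276) were called under all 25 alternatives in samples, tool, filter, scaling or covariates. When an absolute log2 fold change above 1 was required as well, Atg16l2, on the higher side, was the sole member left. Under that rule 2.8% of all genes were called higher and 2.09% lower.

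Outside the conjugation genes and the LC3 and GABARAP genes, Becn1 was the sole member called by edgeR in Control APP/PS1. None of the 5 initiation genes passed in that fit, and 4 of them were on the negative side, with Ulk2 at 165 to 216 CPM in Control WT and 126 to 166 CPM in Control APP/PS1 (−0.42 ± 0.19, adjusted p = 0.176). Ulk2 was called lower by limma voom, with only the Control groups in the fit, with a term for libraries 18 to 23 and with length and GC offsets, and Atg101 with both kinds of length and GC offsets. In the nucleation group the inhibitor Rubcn had −0.37 ± 0.18 (adjusted p = 0.201) and was called lower by limma voom and with length and GC offsets, and the kinase Pik3c3 had −0.01 ± 0.23 (adjusted p = 0.986). The 5 membrane supply genes had log2 fold changes of −0.03 to 0.17. Of the cargo receptors, Optn (ENSMUSG00000026672, chr2:5022703-5068945), the ubiquitin-binding receptor optineurin, had the largest estimate of all members, 1.82 ± 0.60, just outside the threshold (adjusted p = 0.0531). DESeq2 and limma voom both called it. It stood at 0.233 to 1.57 CPM in Control WT (median 1.09) and at 1.91 to 5.12 CPM in Control APP/PS1 (median 3.26), with no overlap but at a low level. Nbr1, Tax1bp1 and Calcoco1 had changes of −0.06 to 0.19.

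The mitophagy genes of the list stayed close to 0 in this comparison. Pink1 (ENSMUSG00000028756, chr4:138039346-138053618) stood at 107 to 155 CPM in Control WT (median 127) and 111 to 135 CPM in Control APP/PS1 (median 116), with a 95% interval of the log2 fold change from −0.37 to 0.11 (adjusted p = 0.598). Fundc1 (ENSMUSG00000025040, chrX:17386204-17438572), a receptor in the outer mitochondrial membrane, stood at 142 to 167 CPM (median 145) against 107 to 169 CPM (median 139), with an interval from −0.42 to 0.20 (adjusted p = 0.763). Bnip3l (ENSMUSG00000022051, chr14:67222678-67246356), which encodes the receptor NIX, stood at 209 to 252 CPM (median 219.5) against 226 to 279 CPM (median 243), with an interval from −0.05 to 0.28 (adjusted p = 0.448). In all 3 genes the groups overlapped. With length and GC offsets Bnip3l was called higher (0.21, adjusted p = 0.0475), though not with offsets from all annotated exons (0.18, 0.116).

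Among 49 other genes of the pathway, 8 rose and 4 fell in Control APP/PS1, where 5.99% of all genes rose and 4.48% fell, with a median log2 fold change of 0.13 against −0.02 over all genes. The higher genes were Usp30, the mitochondrial deubiquitinase that opposes Parkin-dependent mitophagy (1.11 ± 0.15, adjusted p = 1.76e-05), the autophagosome-to-lysosome tether Tecpr1 (1.33 ± 0.21, 0.000126), the PI3-kinase complex subunit Nrbf2 (0.78 ± 0.13, 0.000296), the late endosomal GTPase gene Rab7 (0.35 ± 0.07, 0.00154), the cargo receptor Sqstm1 (0.36 ± 0.09, 0.00738), and 3 mitophagy receptors. These receptors were Fkbp8 (0.36 ± 0.09, adjusted p = 0.00949), Phb2 (0.48 ± 0.13, 0.0159) and Bnip3 (0.62 ± 0.19, 0.0347). The lower genes were Rubcnl, which encodes Pacer (−0.63 ± 0.16, adjusted p = 0.00924), the SNARE gene Ykt6 (−0.33 ± 0.09, 0.0153), the lysosomal transcription factor gene Tfeb (−0.34 ± 0.11, 0.0417) and the ferritin receptor gene Ncoa4 (−0.42 ± 0.14, 0.0471). Bnip3 and Bnip3l are paralogues, and only the estimate of Bnip3 passed the test, but the difference between them was not tested.

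The sequence before a RefSeq transcript start is shown for the called conjugation genes and for the LC3 and GABARAP genes with an entry. Of these, Map1lc3b and Gabarapl2 were not called by edgeR in Control APP/PS1 against Control WT. Promoter entries in the RefSeq table of GRCm38.p6 were used for 32 of the 40 members. None was used for Rb1cc1, Becn1, Pik3c3, Atg12, Atg16l1, Map1lc3a, Bnip3l and Epg5. Each line gives the 250 bases before the RefSeq start on the gene's strand, 5′ to 3′, with positions found by an exact match of the sequence to GRCm39. The motifs searched on both strands were CACGTG, the core E-box of the lysosomal CLEAR element, GTAAACA, the forkhead element, TGACNNNGC, the antioxidant response core, and GGGCGG, the GC box. Capitals mark every match. The entries are Atg7 (chr6:114647807-114648056, plus strand), Atg16l2 (chr7:100951296-100951545, minus strand), Map1lc3b (chr8:122316927-122317176, plus strand), Gabarap (chr11:69881946-69882195, plus strand), Gabarapl1 (chr6:129509905-129510154, plus strand) and Gabarapl2 (chr8:112667085-112667334, plus strand).
Atg7: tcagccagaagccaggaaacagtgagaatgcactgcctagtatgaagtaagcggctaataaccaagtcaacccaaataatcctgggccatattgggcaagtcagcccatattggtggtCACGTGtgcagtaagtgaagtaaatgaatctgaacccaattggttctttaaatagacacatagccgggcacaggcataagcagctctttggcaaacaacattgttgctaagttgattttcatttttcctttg
Atg16l2: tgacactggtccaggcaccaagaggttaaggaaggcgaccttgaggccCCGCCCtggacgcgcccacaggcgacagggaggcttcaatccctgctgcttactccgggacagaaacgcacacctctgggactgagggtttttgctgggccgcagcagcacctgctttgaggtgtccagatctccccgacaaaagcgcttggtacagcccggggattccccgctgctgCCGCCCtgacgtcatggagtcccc
Map1lc3b: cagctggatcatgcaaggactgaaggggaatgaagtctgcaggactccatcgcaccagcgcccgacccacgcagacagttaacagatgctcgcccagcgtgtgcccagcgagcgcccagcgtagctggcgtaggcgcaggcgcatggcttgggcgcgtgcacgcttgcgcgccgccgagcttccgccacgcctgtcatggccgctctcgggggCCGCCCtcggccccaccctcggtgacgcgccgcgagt
Gabarap: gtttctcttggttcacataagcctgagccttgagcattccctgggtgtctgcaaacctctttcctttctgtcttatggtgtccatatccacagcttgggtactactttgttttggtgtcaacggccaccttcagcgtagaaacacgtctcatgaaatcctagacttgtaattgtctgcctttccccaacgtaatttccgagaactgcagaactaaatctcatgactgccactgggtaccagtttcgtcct
Gabarapl1: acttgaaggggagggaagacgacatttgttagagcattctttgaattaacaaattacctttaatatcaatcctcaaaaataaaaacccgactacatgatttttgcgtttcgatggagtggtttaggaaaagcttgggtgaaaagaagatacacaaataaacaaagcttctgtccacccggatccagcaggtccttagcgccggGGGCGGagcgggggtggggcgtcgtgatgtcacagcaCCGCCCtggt
Gabarapl2: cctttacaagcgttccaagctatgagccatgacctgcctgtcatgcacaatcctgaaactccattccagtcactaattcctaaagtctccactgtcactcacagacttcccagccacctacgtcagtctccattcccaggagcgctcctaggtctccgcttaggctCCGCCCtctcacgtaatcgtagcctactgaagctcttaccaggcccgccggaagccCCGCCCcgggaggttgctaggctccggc

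The 32 members had 35 promoter windows in use, since Tax1bp1, Nbr1 and Rubcn each had 2. Pik3c3, Atg12 and Epg5 share a chromosome from which no member window was used. The shares of members and of all windows may thus not cover the same chromosomes. CACGTG was found in 4 of the 35 windows (11.4%, in Atg7, Atg5, Rubcn and Atg3) and in 6.02% of all 32851 windows of the table. Of these 4 genes, Atg7 rose in Control APP/PS1, and Atg5, Rubcn and Atg3 did not pass (0.02 ± 0.14, −0.37 ± 0.18 and 0.01 ± 0.13). GTAAACA was in none of the 35 and in 3.17% of all windows, and TGACNNNGC in 3 (8.57%, in Atg13, Tax1bp1 and Ulk2) against 10.2%. GGGCGG was in 21 of the 35 (60.0%) against 32.7% of all, where the median GC content was 58.8% in the members and 52.4% over all promoters. Of the 6 sequences shown, Atg7 alone held CACGTG, 132 bases before the start, and Gabarap held none of the 4 motifs. The RefSeq start of this Atg7 window lies 28.0 kb inside the gene as GENCODE places it, and that of the Rubcn window with CACGTG 9.40 kb inside. Those of Atg5 and Atg3 lie 2.26 kb and 0.444 kb inside. None of the 4 windows with CACGTG is thus upstream of the outermost annotated start. A match describes letters in this window only.

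The second comparison asked how the members differed between KD and Control mice without amyloid. In KD WT, 0 of the 40 members passed relative to Control WT (edgeR), with 0% of all genes called higher and 0% lower. DESeq2 and limma voom also called 0 members, against 6 higher and 4 lower genes and 1 higher and 0 lower in the whole table. At an unadjusted p under 0.05 there was 1 member higher and 0 lower, against 3.06% and 2.86% of all genes. With KD libraries 18 to 23 only, that is libraries 19 and 22, there were 7 higher and 12 lower, and 18.2% of all genes at that p against 5.92%, with 0 members called. The 1 member in the fit as reported was Atg13 (ENSMUSG00000027244, chr2:91502602-91541186), the adaptor of the ULK1 complex, with a log2 fold change of 0.22 ± 0.10 (unadjusted p = 0.0415, adjusted p = 0.792). Atg13 stood at 26.9 to 32.7 CPM in Control WT (median 28.7) and at 31.6, 33.2, 39.8, 30.9 and 33.4 CPM in KD WT, so that the groups overlapped. The log2 fold changes of the 40 members ran from −1.30 ± 0.64 (Optn, adjusted p = 0.859) to this value, with a median of −0.01 against 0.01 over all genes.

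The 5 LC3 and GABARAP genes spread widely among the KD WT libraries. Map1lc3a stood at 64.2, 49.1, 46.5, 74.1 and 93.8 CPM in the KD WT libraries, Gabarap at 432, 337, 333, 508 and 697 CPM, and Gabarapl1 at 102, 99, 75, 119 and 131 CPM. Map1lc3b stood at 174, 157, 170.1, 197 and 238 CPM and Gabarapl2 at 121, 94, 76.4, 124 and 189.7 CPM. In each of the 5 genes, libraries 19 and 22 were the highest of the group and libraries 2 and 3 were the lowest pair. Library 22 lay above the Control WT range in all 5 genes. The mitophagy genes showed no call: Pink1 at 113, 141, 181, 140.1 and 171 CPM (0.20 ± 0.13), Fundc1 at 139, 128, 117, 159 and 217 CPM (0.02 ± 0.17) and Bnip3l at 231, 232, 211, 238 and 259 CPM (0.05 ± 0.09), each with an adjusted p of 1. Optn, in contrast, was scarce. It stood at 0.976, 0.478, 0.288 and 0.268 CPM in the first 4 libraries and had no count in library 22, where 3 counts would be 0.0713 CPM.

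The third comparison asked the same in mice with amyloid. In KD APP/PS1, 0 of the 40 members passed relative to Control APP/PS1 (edgeR, smallest adjusted p 0.205), again with 0% of all genes called higher and 0% lower. At an unadjusted p under 0.05 there were 8 members higher and 10 lower, against 10.8% and 9.74% of all genes. DESeq2 called 2 members higher, Map1lc3a and Gabarapl2, and 0 lower, with 449 genes higher and 131 lower in the whole table, and limma voom called 0 members, with 0 genes higher and 2 lower. The median log2 fold change was −0.20 over the members and 0.01 over all genes. The groups overlapped in all 40 members, where 0.458% of all genes lay apart higher and 0.362% lower. The counts at an unadjusted p under 0.05 moved with single libraries, as did the share of all genes at that p in either direction, 20.6% in the fit as reported. They were 6 higher and 5 lower without Control APP/PS1 library 5 (12.7% of all genes), 5 and 8 without KD APP/PS1 library 20 (14.6%), 3 and 4 without library 21 (8.59%), 5 and 5 without library 23 (12.1%), and 12 and 16 without library 4 (31.4%). With Control APP/PS1 library 10 kept they were 2 and 2 (7.20%).

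The members on the higher side at an unadjusted p under 0.05 were the 5 LC3 and GABARAP genes, Atg5, Atg10 and Fundc1. Map1lc3a had a log2 fold change of 0.50 ± 0.16, with 86, 122, 133, 146 and 136 CPM in KD APP/PS1. Gabarapl2 had 0.59 ± 0.20, with 104, 139, 182, 255 and 225 CPM, Gabarap 0.41 ± 0.17, with 583, 759, 847, 1091 and 942 CPM, and Gabarapl1 0.36 ± 0.14, with 129, 161, 169, 241 and 169.8 CPM. In these genes library 4 was the lowest of its group and within the range of Control APP/PS1, and library 21 was the highest. Map1lc3b had 0.24 ± 0.11 (adjusted p = 0.235), with 198, 235, 242, 316 and 291 CPM. Fundc1 had 0.43 ± 0.16, with 125, 153, 192, 265 and 201 CPM, Atg5, the partner of Atg12, 0.37 ± 0.15, and Atg10 0.51 ± 0.21 (adjusted p = 0.207). The adjusted p was 0.205 for each of these genes where no other value is given.

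The members on the lower side were 3 cargo receptors and 7 genes of initiation, nucleation, membrane supply and fusion. Calcoco1 (ENSMUSG00000023055, chr15:102614354-102630631), a receptor for endoplasmic reticulum cargo, had −0.67 ± 0.23, with 21.4 to 29 CPM in Control APP/PS1 (median 24.5) and 24.1, 19.8, 17.7, 9.85 and 7.36 CPM in KD APP/PS1. Nbr1 (ENSMUSG00000017119, chr11:101442962-101472781), a receptor for ubiquitinated cargo, had −0.65 ± 0.24, with 66.2 to 93 CPM (median 70.5) and 83.9, 52.2, 48.2, 22.9 and 30.6 CPM. Tax1bp1 (ENSMUSG00000004535, chr6:52690676-52745153), also a ubiquitin-binding receptor, had −0.83 ± 0.31, with 40.1 to 69.4 CPM (median 47) and 51.4, 35.5, 24.4, 15.3 and 14 CPM. In these receptors library 4 lay within the Control APP/PS1 range and libraries 21 and 23 far below it. The autophagosomal SNARE gene Stx17 had −0.52 ± 0.20, and like the receptors an adjusted p of 0.205. Atg14 (−0.34 ± 0.14, adjusted p = 0.206), Ulk2 (−0.48 ± 0.20, 0.21), Uvrag (−0.31 ± 0.13, 0.212), Ambra1 (−0.54 ± 0.23, 0.213), Pik3c3 (−0.56 ± 0.24, 0.213) and Atg2b (−0.65 ± 0.30, 0.229) completed this side.

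For most of these members edgeR's call depended on library 4. Without it, 9 members were called higher (Atg4d, Atg5, Atg12, Fundc1 and the 5 LC3 and GABARAP genes) and 9 lower (Ulk2, Rb1cc1, Pik3c3, Ambra1, Atg2b, Nbr1, Tax1bp1, Calcoco1 and Stx17). Atg10, Atg14 and Uvrag were not called in that fit either (adjusted p = 0.0573, 0.0597 and 0.0589). In that fit, 7.34% of all 18700 genes tested were called higher and 9.07% lower, and Map1lc3a had 0.61 (adjusted p = 0.0209), Gabarapl2 0.74 (0.0202) and Nbr1 −0.95 (0.0202). Library 4 was also the only KD APP/PS1 library numbered below 18 and the only one with choroid plexus markers under 1 CPM (0.626 CPM). The same split ran through KD WT. In KD WT libraries 19 and 22 the 5 LC3 and GABARAP genes summed to 1021 and 1349 CPM, against 893, 736 and 701 CPM in libraries 1, 2 and 3, and in KD APP/PS1 library 4 stood at 1099 CPM against 1416, 1573, 2049 and 1763 CPM in libraries 18, 20, 21 and 23. With a term for libraries numbered 18 to 23, the estimates of 12 of the 18 members changed sign, among them Map1lc3a (−0.04), Gabarap (−0.16) and Nbr1 (0.03), and in that fit 0 members passed at an unadjusted p under 0.05. That term rests on KD libraries alone, since no Control library has such a number, and it leaves mainly library 4 to stand for KD APP/PS1. Knockdown and library number cannot be told apart in APP/PS1 mice.

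**Figure D4:**
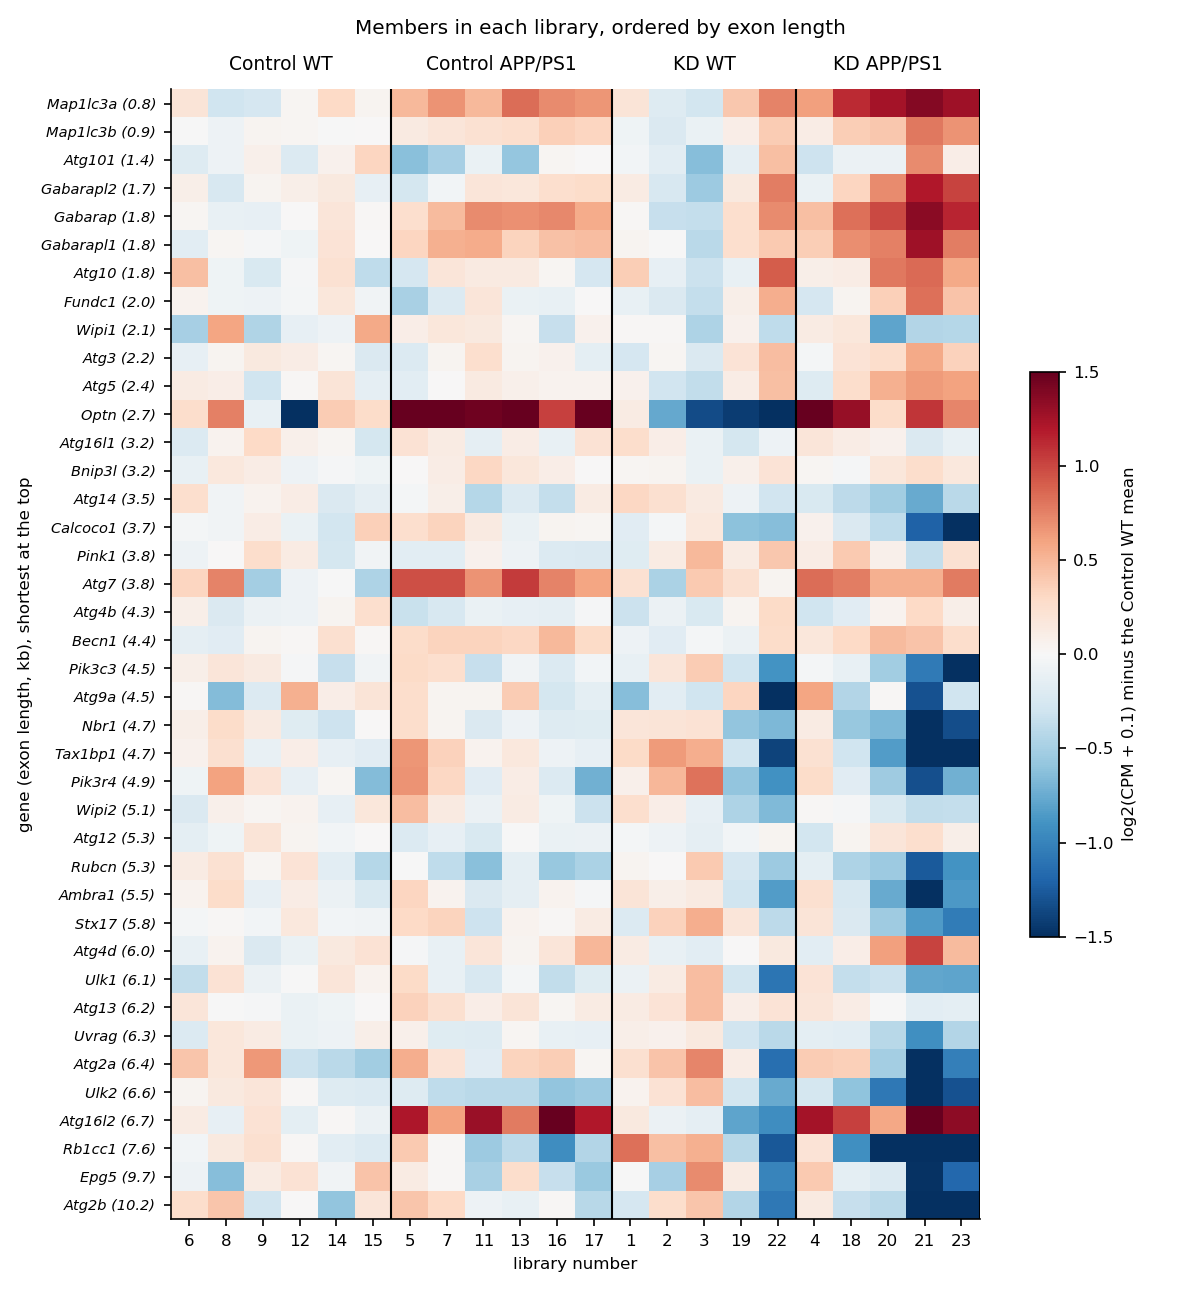
Difference of log2(CPM + 0.1) from the Control WT mean (colour) for the 40 members (rows, shortest exon length at the top) in each of the 22 libraries (columns, by group and library number). Libraries 19 and 22 of KD WT and 18, 20, 21 and 23 of KD APP/PS1 are higher at the top and lower at the bottom, whereas library 4 and the Control libraries show little of this order.

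The differences between KD APP/PS1 and Control APP/PS1 followed exon length. The 8 members on the higher side had 823 to 2380 bp of exon (median 1792) and the 10 on the lower side 3451 to 10245 bp (median 5095.5), so that the lengths of both sets did not overlap. Of the 10 shortest members (823 to 2186 bp), 9 had positive estimates (median 0.39), and of the 10 longest (6044 to 10245 bp), 8 had negative ones (median −0.29). Spearman's correlation between exon length and log2 fold change was −0.61 over the 40 members and −0.36 over 18615 genes. With at least 10 counts required in every sample it was −0.65 over 39 members and −0.61 over 10860 genes. These are correlations across genes, which are not independent replicates, and they share the same libraries. In the other contrasts the correlation over the members and over all genes was −0.59 and −0.30 (KD APP/PS1 against KD WT), −0.61 and −0.27 (the interaction of knockdown and APP/PS1), −0.25 and −0.09 (Control APP/PS1 against Control WT) and −0.21 and −0.05 (KD WT against Control WT). With at least 10 counts required in every sample, these pairs were, in the same order, −0.58 and −0.48, −0.60 and −0.55, −0.24 and −0.12, and −0.25 and −0.11. With lengths over all annotated exons, the value over the members was −0.06 for Control APP/PS1 against Control WT. For KD WT against Control WT the value over the members changed with the libraries and the tool, from −0.67 with KD libraries 18 to 23 only to 0.23 with limma voom, 0.61 with a term for those libraries and 0.73 without the choroid-rich WT libraries.

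**Figure D5:**
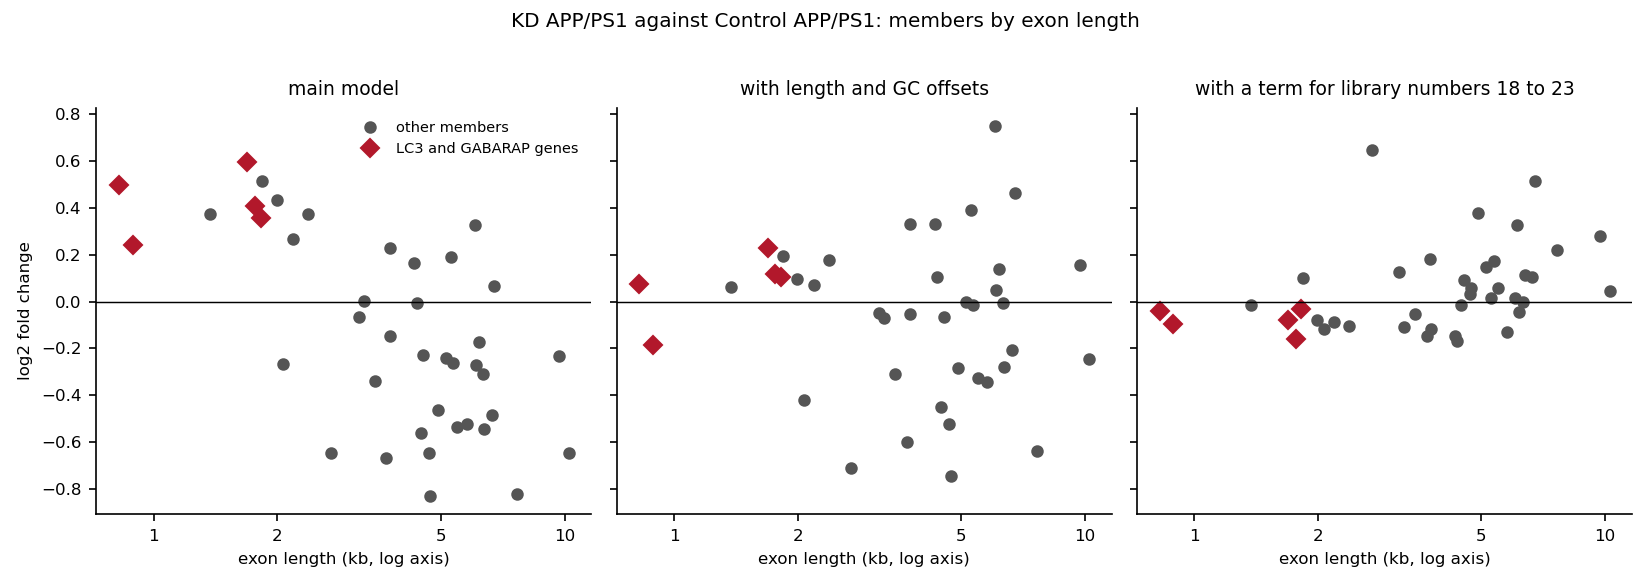
log2 fold change of KD APP/PS1 against Control APP/PS1 (vertical axis) by exon length in kb (horizontal log axis) for the 40 members, in the fit as reported (left), with length and GC offsets (middle) and with a term for libraries numbered 18 to 23 (right); diamonds are the LC3 and GABARAP genes. In the left panel short members lie mostly above 0 and long members mostly below, and Spearman's correlation is −0.61, −0.12 and 0.49 from left to right.

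Within single libraries the same order could be read without any fit. The median log2 level of the 10 shortest members, less that of the 10 longest, each gene taken relative to its Control WT mean, ran from −0.22 to 0.23 in Control WT and from −0.37 to 0.39 in Control APP/PS1. It was −0.09, −0.34, −0.82, 0.40 and 1.495 in KD WT and −0.09, 0.42, 0.93, 2.06 and 1.54 in KD APP/PS1. Within the KD groups the highest values belonged to libraries numbered 18 to 23, in both genotypes. Control APP/PS1 library 10, which was left out of the fit as reported, had a value of 1.32, with 1815 CPM of the 5 LC3 and GABARAP genes. It is neither a KD library nor numbered 18 to 23. With that library kept, the correlation for Control APP/PS1 against Control WT was −0.45 over the members and −0.18 over all genes. KD libraries 18 to 23 also held more choroid plexus marker signal (72.6 to 546 CPM) than KD WT libraries 1, 2 and 3 (0.598 to 34.6 CPM) and KD APP/PS1 library 4. Control WT libraries 12 and 15 held 1260 and 745 CPM of the same markers, and their differences were 0.05 and −0.03. With offsets for exon length and GC content the correlation for KD APP/PS1 against Control APP/PS1 was −0.12 over the members and 0.02 over all genes, and with lengths taken from all annotated exons −0.43 and −0.14. Map1lc3b turned to −0.19 under the first of these offsets. What underlies the relation to exon length was not tested.

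Among the 49 other pathway genes, 0 passed in KD APP/PS1 against Control APP/PS1 (edgeR), with 6 higher and 11 lower at an unadjusted p under 0.05, where 10.8% and 9.74% of all genes stood. Those on the higher side included the scramblase genes Vmp1 (0.46) and Tmem41b (0.39), the protease gene Atg4a (0.41), the SNARE gene Vamp8 (0.51) and Bnip3 (0.52). Those on the lower side included the transcription factor genes Tfe3 (−0.38) and Mitf (−0.58) and the HOPS tether genes Vps39 (−0.53) and Vps41 (−0.50). The mitophagy members Pink1, at 139, 169, 136, 100.5 and 151 CPM (0.23 ± 0.13), and Bnip3l, at 229.9, 222, 254, 269.6 and 251 CPM (0.00 ± 0.09), did not pass. For Bnip3l the 95% interval ran from −0.17 to 0.17.

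The fourth comparison set APP/PS1 against WT within the KD groups. Relative to KD WT, 7 members rose in KD APP/PS1 and 4 fell, where 9.77% of all genes rose and 6.41% fell. The higher members were 4 of the 5 LC3 and GABARAP genes, Atg16l2, Becn1 and Optn. The lower members were Ulk2 and Rb1cc1 of the ULK1 complex, and Atg14 and Rubcn of the PI3-kinase complexes. The median was −0.01 over the members and −0.07 over all genes. In 3 members all KD APP/PS1 libraries lay above all KD WT libraries (Atg7, Atg16l2 and Optn), against 4.18% of all genes, and in none did they all lie below, against 2.88%. This comparison shares no library with that of the Control groups. As there, microglia markers moved with the genotype, with 5 of 8 called lower, and so did 3 of 6 border-associated macrophage and 3 of 6 endothelial, 2 of 6 oligodendrocyte and 1 of 6 monocyte and neutrophil markers. Of the astrocyte markers 1 of 6 was called higher, while 0 of 10 choroid plexus markers were called.

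Atg16l2 stood at 3.17, 2.68, 2.6, 1.61 and 1.45 CPM in KD WT and at 6.93, 5.94, 4.31, 9.67 and 7.42 CPM in KD APP/PS1 (1.57 ± 0.27, adjusted p = 0.00036). The lowest KD APP/PS1 library lay above the highest KD WT library, whatever the library number. Optn stood below 1 CPM in every KD WT library and at 4.21, 2.33, 1.09, 1.98 and 1.54 CPM in KD APP/PS1 (2.46 ± 0.68, adjusted p = 0.0144). Since 1 KD WT library had no count, this fitted value depends on the prior count. Map1lc3a rose by 0.93 ± 0.17 (adjusted p = 0.000767), Gabarapl1 by 0.73 ± 0.14 (0.00138), Gabarap by 0.87 ± 0.17 (0.00152) and Map1lc3b by 0.45 ± 0.12 (0.0107). In these 4 genes the groups overlapped, with KD WT library 22 the highest and KD APP/PS1 library 4 the lowest of their groups. Becn1 rose by 0.34 ± 0.10 (adjusted p = 0.0239), from 85, 79.2, 87.8, 84 and 108 CPM to 100.5, 110.1, 125, 121 and 107 CPM. Gabarapl2 (0.58 ± 0.21, adjusted p = 0.0646) and Atg7 (0.58 ± 0.20, adjusted p = 0.0504) did not pass, though DESeq2 and limma voom called both, and Atg7 stood at 15.1, 9.23, 16.8, 15.2 and 13.2 CPM in KD WT and at 23, 21.9, 18.7, 18.6 and 22.2 CPM in KD APP/PS1.

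Of the lower members, Ulk2 (ENSMUSG00000004798, chr11:61665841-61746170) stood at 198, 220.1, 263, 157 and 112 CPM in KD WT and at 158, 125, 90.6, 58.6 and 76.7 CPM in KD APP/PS1 (−0.90 ± 0.21, adjusted p = 0.00567). Atg14 stood at 39.5, 37.7, 35, 30.1 and 26.1 CPM against 27.1, 24.1, 22.1, 18.8 and 24 CPM (−0.54 ± 0.14, adjusted p = 0.0124). In both genes the groups overlapped, with KD WT library 22 low and KD APP/PS1 library 4 high within their groups. Rb1cc1 fell from 23.6, 18.3, 19.3, 9.95 and 5.47 CPM to 15.3, 6.99, 2.62, 4.21 and 2.19 CPM (−1.29 ± 0.42, adjusted p = 0.0381). Rubcn fell from 40.5, 39.6, 51.8, 33 and 27 CPM to 35.6, 28.7, 27, 16.4 and 21.2 CPM (−0.57 ± 0.19, adjusted p = 0.0453). In each of these 4 genes the libraries numbered 18 to 23 were the lowest of their own group.

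The calls of Rb1cc1, Becn1 and Rubcn lay near the threshold. Rb1cc1 lost its call in 7 of 10 fits without 1 library (KD WT 1, 2 or 3, KD APP/PS1 18, 20, 21 or 23), with adjusted p up to 0.107 and changes of −1.93 to −1.06 over the 10 fits. Becn1 lost it in 5 of 10 (KD WT 1, 2 or 19, KD APP/PS1 20 or 21), with adjusted p up to 0.0751 and changes of 0.30 to 0.43, and Rubcn in 7 of 10 (KD WT 1, 2 or 3, KD APP/PS1 18, 20, 21 or 23), with adjusted p up to 0.151 and changes of −0.72 to −0.44. When only KD libraries 18 to 23 were kept, Atg16l2, Map1lc3a, Gabarapl1 and Optn were still called and no member was called lower, against 2.60% and 2.09% of all genes. In that fit Gabarap had 0.56 (adjusted p = 0.0545), Map1lc3b 0.29 (0.23), Becn1 0.24 (0.356), Ulk2 −0.65 (0.0873), Rb1cc1 −0.97 (0.17), Atg14 −0.37 (0.284) and Rubcn −0.39 (0.363). Without the WT libraries above 10 CPM of choroid plexus markers, 10 members were called higher and 9 lower, against 13.9% and 9.91% of all genes. That fit leaves KD WT libraries 2 and 3 alone in their group, so it also removes the KD WT libraries numbered 18 to 23. With only the KD groups in the fit, 4 members were called higher and 0 lower, against 4.33% and 1.78%, and with length and GC offsets Map1lc3b turned to −0.17. Atg16l2 (adjusted p 1.58e-07 to 0.0119), Map1lc3a (1.43e-05 to 0.0301) and Gabarapl1 (7.66e-05 to 0.043) were called under all 22 alternatives in samples, tool, filter, scaling or covariates. When an absolute log2 fold change above 1 was required as well, Atg16l2 and Optn were left on the higher side and Rb1cc1 on the lower, against 3.91% and 1.98% of all genes.

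Of the 49 other pathway genes, 9 rose and 6 fell in KD APP/PS1 against KD WT, where 9.77% and 6.41% of all genes did, with a median of −0.07 in both. The higher genes were Usp30 (1.09, adjusted p = 9.05e-05), Nrbf2 (0.93, 0.000132), Bnip3 (1.08, 0.000996), Phb2 (0.68, 0.00201), Tecpr1 (0.90, 0.00998), Fkbp8 (0.36, 0.0138), Rab7 (0.24, 0.038), Vamp8 (0.61, 0.0388) and Tmem41b (0.43, 0.0478). The lower genes were Rubcnl (−0.85, adjusted p = 0.00169), Ncoa4 (−0.70, 0.00231), Tfe3 (−0.59, 0.00404), the autophagy repressor Zkscan3 (−0.43, 0.0389), the AMPK subunit gene Prkaa1 (−0.38, 0.0392) and Tbk1, the kinase of cargo receptors (−0.41, 0.046). Usp30, Nrbf2, Bnip3, Phb2, Tecpr1, Fkbp8 and Rab7 thus rose with APP/PS1 in both the Control and the KD comparison, and Rubcnl and Ncoa4 fell in both.

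The last comparison asked whether the change with knockdown differed between APP/PS1 and WT mice. No member passed this interaction test (edgeR, smallest adjusted p 0.544), with 0% of all genes called higher and 0% lower. DESeq2 and limma voom called 0 members as well, against 18 higher and 7 lower genes and 0 higher and 1 lower in the whole table. At an unadjusted p under 0.05 there were 0 members higher and 4 lower, against 4.86% and 4.22% of all genes. These were Atg13 (−0.40 ± 0.15), Stx17 (−0.66 ± 0.28), Tax1bp1 (−0.94 ± 0.43) and Atg14 (−0.41 ± 0.19), each with an adjusted p of 0.544. The counts were 8 higher and 6 lower without KD WT library 22 and 5 and 9 without KD APP/PS1 library 4, with 18.8% and 20.8% of all genes at that p against 9.08% in the fit as reported. They were 0 and 1 without Control APP/PS1 library 7, KD WT library 2 or 3, or KD APP/PS1 library 21 or 23 (6.23% to 7.31% of all genes). Without Control WT library 9, 14 or 15, Control APP/PS1 library 5, KD WT library 1 or KD APP/PS1 library 20 they were 0 and 2 (6.48% to 9.06%).

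In Atg13 the KD APP/PS1 libraries stood at 32.9, 31.3, 28.7, 25.8 and 26 CPM, against 29.5 to 36.8 CPM in Control APP/PS1 (median 32.2). Stx17 (ENSMUSG00000061455, chr4:48124908-48186507) stood at 12.4 to 14.4 CPM in Control WT (median 12.6), 11.1, 16.4, 18.8, 14.7 and 9.82 CPM in KD WT, 10.4 to 16.3 CPM in Control APP/PS1 (median 13.8) and 14.8, 11.1, 8.88, 7.13 and 6.17 CPM in KD APP/PS1. Tax1bp1 stood at 53.2, 67.9, 64.1, 35.4 and 16.6 CPM in KD WT, and Atg14 at 27.2 to 38 CPM in Control WT (median 31.8) and 23.7 to 34.8 CPM in Control APP/PS1 (median 29.4). In Stx17 and Tax1bp1 the lowest libraries of both KD groups were numbered 18 to 23.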

How the data were processed

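The authors deposited a table of raw counts per gene for bulk RNA-seq of CD11b+ cells of female mouse hippocampus. Per the study's methods, reads were trimmed with Trim Galore 0.6.7 and aligned with STAR to mm39, and unique reads were counted per GENCODE gene; the strand setting is not given in the sources used here, so overlapping genes on opposite strands cannot be told apart. The deposited normalized table was not used. Groups came from the labels. As in the study, Control APP/PS1 library 10 was left out of the fit, which held 22 libraries (31128643 to 54872491 counts each).

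A minimum of 5 counts in any 3 samples was required, and genes were then tested with edgeR 4.0.16 (R 4.3.3; TMM, glmQLFit and glmQLFTest, 4 groups in 1 fit, two-sided), and p-values were adjusted by Benjamini-Hochberg over all 18759 genes, with a threshold of 0.05. Replicates were separate libraries that the study calls biological replicates; p-values measure the spread between them. Exon lengths and positions came from a GENCODE annotation of GRCm39. The code was tested on simulated data. DESeq2 1.42.0, limma 3.58.1 (voom with quality weights), other filters, scalings, sample sets and leaving out each library were alternatives; leaving out choroid-rich WT libraries, keeping only KD libraries 18 to 23 and offsets from all annotated exons were chosen after seeing the data. The members and lists were chosen with earlier results of these data known. Members at adjusted p under 0.05 are named, or, where none passed, those at an unadjusted p under 0.05; library values are given for the 4 with the smallest p in each comparison, the LC3 and GABARAP genes, Pink1, Fundc1, Bnip3l, Optn and Slc11a2. The library values of Ulk2, Rb1cc1, Rubcn and Becn1 were added after their values were seen.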

Additional observations from a re-analysis of the deposited data

Results flagged for a closer look

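In 5 of 164 groups of libraries examined, over 40 members and Slc11a2, 1 library stood apart from the others of its group, and chance flags about 1 in 20 such groups. Atg13 was at 39.8 CPM in KD WT library 3, the highest of that group, and at 32.7 CPM in Control WT library 6. Becn1 was at 125 CPM and Wipi1 at 5.32 CPM in Control APP/PS1 library 16. Stx17 was at 14.4 CPM in Control WT library 12. No member moved in opposite directions with knockdown in every library of both genotypes.

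Control APP/PS1 library 10, which the study removed as an outlier, entered only the alternative fit that kept it. It lay above every library of both Control groups for 12 members. These were Atg101 (77.1 CPM), Becn1 (126), Atg3 (69.1), Atg4b (84.2), Atg4d (39.4), Atg5 (147), Map1lc3a (127), Map1lc3b (281), Gabarap (989), Gabarapl1 (185), Gabarapl2 (232) and Fundc1 (226). It lay below every library of both groups for 20 members. The share of all genes outside both ranges was not computed, so these counts describe the library and are not a result about the members.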

How the results depend on the processing

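No paired analysis was possible because the library numbers are unique to each sample. Leaving out 1 library in turn gave 4 to 6 higher and 0 to 0 lower members in Control APP/PS1 against Control WT, 0 to 9 higher and 0 to 9 lower in KD APP/PS1 against Control APP/PS1, 6 to 11 higher and 2 to 9 lower in KD APP/PS1 against KD WT, and 0 in the other comparisons. The shares of all genes called higher and lower, in that order of comparisons, ran over 4.87% to 5.83% and 3.33% to 4.70%, 0% to 7.34% and 0% to 9.07%, and 6.68% to 13.2% and 3.9% to 12.6%. In Control APP/PS1 against Control WT, 1 member was higher at an absolute log2 fold change above 1, against 2.8% of all genes. The count of lower members was 2 with limma voom (7.15% of all genes), 1 with the compared groups alone (7.28%), 1 with a term for libraries 18 to 23 (6.16%), 3 with length and GC offsets (5.61%) and 1 with offsets from all annotated exons (5.07%). In KD APP/PS1 against Control APP/PS1, DESeq2 called 2 higher, the fit without library 4 called 9 higher and 9 lower, and KD libraries 18 to 23 only gave 8 and 12, against 9.21% and 12.7% of all genes. In KD APP/PS1 against KD WT, the compared groups alone gave 4 higher and 0 lower, against 4.33% and 1.78% of all genes. KD libraries 18 to 23 only gave 4 and 0, against 2.6% and 2.09%. An absolute log2 fold change above 1 gave 2 and 1, against 3.91% and 1.98%. The lower members there were 7 with DESeq2 (9.41% of all genes), 2 with library 10 kept (4.84%), 9 without library 4 (12.6%), 1 with the term for libraries 18 to 23 (3.48%), 2 with length and GC offsets (5.91%) and 9 without the choroid-rich WT libraries (9.91%), so that the share of all genes moved as well. In KD APP/PS1 against Control APP/PS1 that term reversed Ulk2 (0.11), Ambra1 (0.059), Atg2b (0.045), Atg5 (−0.11), Map1lc3a (−0.041), Map1lc3b (−0.10), Gabarap (−0.16), Gabarapl1 (−0.032), Gabarapl2 (−0.081), Nbr1 (0.032), Tax1bp1 (0.060) and Fundc1 (−0.080), length and GC offsets reversed Map1lc3b (−0.19), and offsets from all annotated exons reversed Uvrag (0.054). In KD APP/PS1 against KD WT, length and GC offsets reversed Map1lc3b (−0.17). The cause of these changes was not tested. Of the alternative values of named members, 132 of 150, 24 of 24, 365 of 414, 197 of 241 and 132 of 132 kept direction and side of the threshold, in the order of the report. Counts limit the precision for Optn, with no count in 1 library.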
